A study of Mus musculus with 6 samples.

Results

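The genes described here carry a cell through DNA replication and division. They are 39 genes of 47719 gene identifiers in the deposited tables, 21 that act in S phase and 18 that act in mitosis, and each was found by its gene symbol. Expression was measured by RNA-Seq in the prostates of 6 mice of strain B6.129S4-Trp53tm3.1Tyj/J. There were 2 wildtype mice (Trp53+/+, mice 39 and 41), 2 heterozygous mice (Trp53R270H/+, mice 37 and 40) and 2 homozygous mice (Trp53R270H/R270H, mice 47 and 49). R270H is a germline missense mutation in the DNA-binding domain of p53, so it was present in every cell type of the gland. The animals were about 3 months of age, had 5 Gy given to the whole body, and their prostates were taken 6 h later. No unirradiated mice were part of the design, so the values describe genotypes after irradiation and not a response to it. Expression is given as FPKM, fragments scaled to transcript length and to the number of mapped fragments, and pairs of values are given in the order of the mouse numbers above.

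Before a cell divides, origins of replication are licensed by loading of the MCM helicase, copied by polymerases that the PCNA clamp holds on DNA, and supplied with deoxynucleotides. Genes for these steps are switched on at the end of G1 by E2F transcription factors. Genes for mitosis are switched on later, in G2, by the MuvB complex with B-MYB and FOXM1, which acts through promoter elements called CHR. After DNA damage p53 induces Cdkn1a, which encodes the kinase inhibitor p21, and p21 lets the RB proteins and the DREAM complex silence both sets of genes. The adult prostate is a slowly dividing gland, and few of its cells are in S phase or mitosis at a given time. In RNA from a whole gland, fewer dividing cells cannot be told apart from less RNA per dividing cell.

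The promoters of both sets are shown first, because their letters differ between S phase and mitosis genes. In the RefSeq promoter table for GRCm38.p6, which covers 250 bases before to 50 bases after each transcription start, 18 of the 21 S phase genes and 13 of the 18 mitosis genes had an entry. Each window was searched on both strands for CHR (TTTGAA or TTCGAA), for CCAAT, and for E2F-type sites (TTTGGCGC, TTTCGCGC, TTTGGCGG or TTTCCCGC). A CHR was found in 11 of the 13 mitosis promoters (84.6%), in 4 of the 18 S phase promoters (22.2%) and in 21.7% of the promoters of all 27025 genes in the table. The same 11 mitosis promoters also held a CCAAT box, a combination present in 9.65% of all genes. E2F-type letters had the opposite distribution, with 7 of 18 S phase promoters (38.9%), 1 of 13 mitosis promoters, that of Cdk1, and 2.70% of all genes. Examples follow, each with the 200 bases before the start, 5′ to 3′ on the gene's strand, and with the matches in capitals (a reverse match to CCAAT reads ATTGG). Rrm1 is shown because it had the clearest difference between genotypes, Mcm6 for its E2F-type letters, and Top2a and Cdc20 as mitosis genes with CHR and CCAAT.
Rrm1 (chr7:102441495-102441694, plus strand): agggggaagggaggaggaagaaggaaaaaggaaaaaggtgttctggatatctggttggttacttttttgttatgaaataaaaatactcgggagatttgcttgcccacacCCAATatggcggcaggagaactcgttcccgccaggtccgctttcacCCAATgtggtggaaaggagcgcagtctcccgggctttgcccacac
Mcm6 (chr1:128359706-128359905, minus strand): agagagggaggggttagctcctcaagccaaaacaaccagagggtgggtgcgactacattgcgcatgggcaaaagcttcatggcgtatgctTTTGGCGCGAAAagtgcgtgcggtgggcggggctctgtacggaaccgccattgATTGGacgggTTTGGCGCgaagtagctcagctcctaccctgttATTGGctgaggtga
Top2a (chr11:99024190-99024389, minus strand): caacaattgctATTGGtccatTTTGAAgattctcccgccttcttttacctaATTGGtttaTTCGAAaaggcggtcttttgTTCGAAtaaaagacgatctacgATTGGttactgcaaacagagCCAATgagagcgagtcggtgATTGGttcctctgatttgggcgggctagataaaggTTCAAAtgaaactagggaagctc
Cdc20 (chr4:118437344-118437543, minus strand): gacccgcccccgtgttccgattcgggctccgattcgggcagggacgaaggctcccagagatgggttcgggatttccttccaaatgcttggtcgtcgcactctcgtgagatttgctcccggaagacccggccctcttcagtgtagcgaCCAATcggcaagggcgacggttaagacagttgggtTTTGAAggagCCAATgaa
Rrm1 has 2 CCAAT boxes, 91 and 45 bases before the start, and none of the CHR or E2F-type letters. Mcm6 has E2F-type letters 110, 106 and 47 bases before the start, the first and second of which overlap. Top2a has 4 CHR matches, and Cdc20 has 1, 18 bases before the start. A match is a description of the letters and is not evidence of binding in these prostates.

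Most replication genes were expressed above the limit used for tests, and many mitosis genes were not. A mean of at least 1 FPKM over the 6 mice was reached by 27 of the 39 genes, 17 of 21 for S phase and 10 of 18 for mitosis. In every single mouse 1 FPKM was reached by 20 genes, 14 for S phase and 6 for mitosis, and 35 genes had a mean of at least 0.5 FPKM. No gene was listed at 0 in any mouse. The median of the mean levels was 3.03 FPKM for S phase and 1.11 FPKM for mitosis. S phase levels ran from 0.0840 FPKM for Orc1 to 18.5 FPKM for Pcna, and mitosis levels from 0.322 FPKM for Bub1 to 5.54 FPKM for Top2a. The genes under 1 FPKM were Orc1, Cdc6, Ccne1 and Ccne2 for S phase, and Mki67, Cenpf, Ccnb1, Ccnb2, Bub1, Kif11, Kif20a and Tpx2 for mitosis. Plk1 (1.07 FPKM), Foxm1 (1.15 FPKM) and Cdc45 (1.16 FPKM) lay just above the limit, and Ccnb2 (0.896 FPKM) and Ccnb1 (0.805 FPKM) just below it. Ccnb1 was at 0.761 and 0.953 FPKM in wildtype, 0.497 and 0.697 in heterozygous, and 1.10 and 0.822 in the homozygous ones. Ccnb2, the other B-type cyclin, was at 0.935 and 0.808, 0.685 and 1.21, and 0.703 and 1.03 FPKM in the same order, so its groups overlapped.

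The tables differed in ways that touch all genes. The FPKM of a mouse summed to between 518671 and 636407, and between 13452 and 13827 genes reached 1 FPKM. The fragments behind the values were estimated relative to wildtype mouse 39, from the most frequent ratio of low FPKM values. This indirect estimate ranged from 0.785 to 1.06. Fragment counts themselves are unknown, so no counting error can be given. Defining prostate genes were present in all 6 mice, but homozygous mouse 47 stood apart in their level. Its probasin gene Pbsn was at 257 FPKM against 7329 to 11512 FPKM in the other mice. The sum of 10 prostate epithelium markers was 1184 FPKM in mouse 47 against 8383 to 12980 FPKM. Wildtype mouse 39 stood apart in seminal vesicle genes, with a sum of 3359 FPKM over 6 markers against 30258 to 53566 FPKM in the other mice. The sum hides differences in single markers of the homozygous mice. Svs2 was listed at 0 in both of them, and Svs4 and Svs5 at 0 in mouse 47. Svs6 was at 26147 FPKM in mouse 47 against 28.6 to 1021 FPKM in the other mice. The sum of 10 skeletal muscle markers was 1513 and 2230 FPKM in wildtype, 4263 and 4501 FPKM in heterozygous, and 5175 and 4541 FPKM in the homozygous ones. The sum of 10 lymphocyte markers was between 4.57 and 7.69 FPKM, with both homozygous mice highest. Of 6 meiotic germ cell markers, which would mark a dividing tissue from outside the gland, Tnp1 and Prm1 were listed at 0 in all mice and the sum was at most 0.811 FPKM. The part of these differences in the results was not tested. Pseudogene copies that could share reads were low, with Pcna-ps2 at no more than 0.0793 FPKM and Ccnb2-ps at no more than 0.258 FPKM.

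Differences between genotypes were tested with limma on log2(FPKM + 0.1), where 0.1 is a pseudocount, for the 13818 genes with a mean of at least 1 FPKM, and p-values were adjusted by Benjamini-Hochberg over all of them. A single one of the 27 tested genes passed an adjusted p of 0.05 in any comparison. This was Rrm1, lower in homozygous than in wildtype mice, where 0.261% of all tested genes were called lower and 0.123% higher. No gene of the set passed between heterozygous and wildtype mice, where the share of all genes was 0%, or between homozygous and heterozygous mice, where it was 0.0145%. None passed the F-test over the 3 genotypes either (0.101% of all genes). Without adjustment, 2 of 27 passed the F-test at 0.05, Rrm1 and Tk1, against 11.5% of all genes. Homozygous against wildtype mice gave the same genes, 2 of 27 lower against 9.32% of all genes and 0 higher against 8.65%. Heterozygous against wildtype mice gave Rrm1 and Top2a as lower, against 2.21% of all genes, and 0 higher against 4.66%. Homozygous against heterozygous mice gave Rrm1 and Tk1 as lower, against 4.42%, and 0 higher against 1.97%. Each of these shares of 2 in 27 is 7.41%. The unadjusted counts were not stable, and by quantile normalization they were 5 for the F-test and 4 for homozygous against wildtype mice, which was also 4 without mouse 49.

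**Figure D1:**
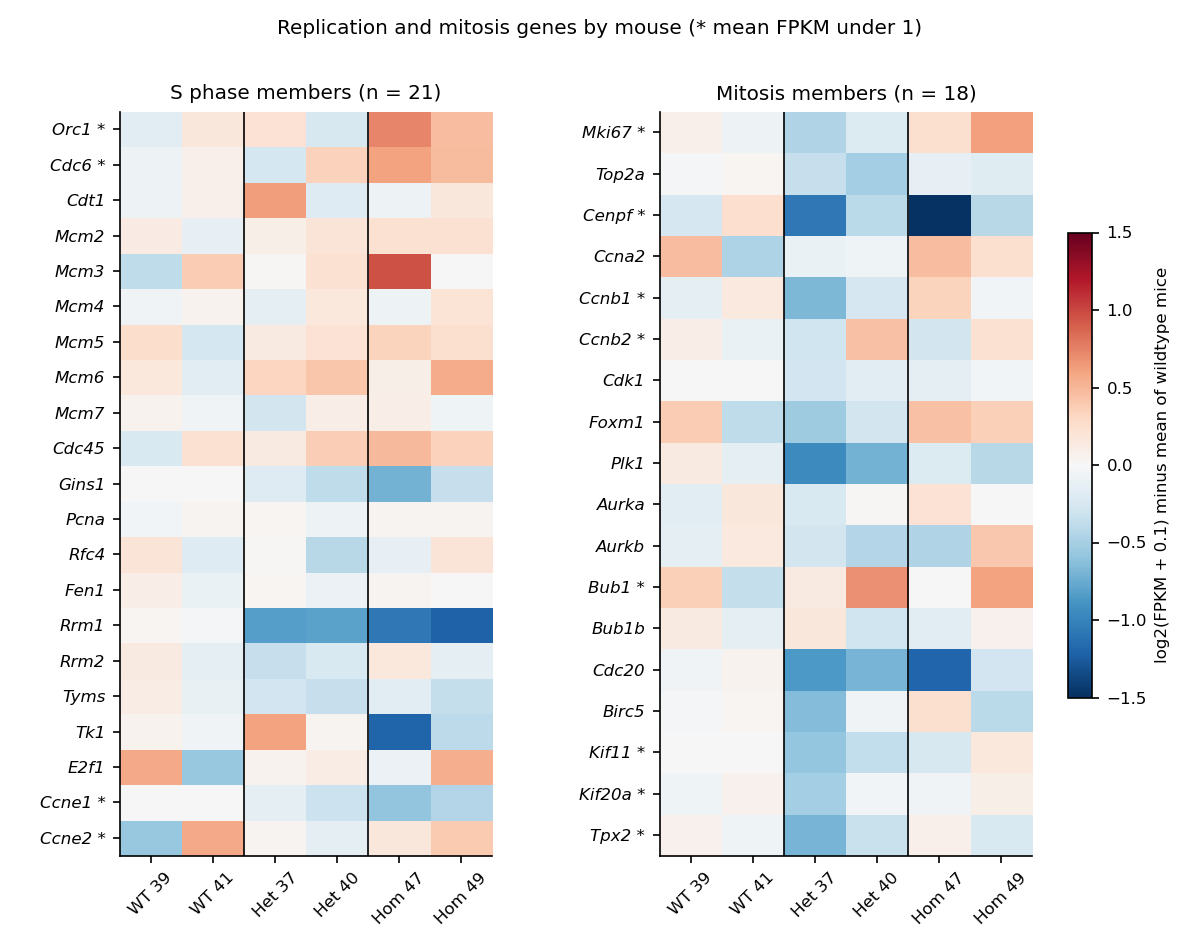
Heat maps of the 21 S phase genes (left) and the 18 mitosis genes (right), with 1 column per mouse and the colour giving log2(FPKM + 0.1) minus the mean of the wildtype mice, and an asterisk for a mean under 1 FPKM. Rrm1 is blue in all 4 mice with R270H, and most mitosis genes are blue in heterozygous mouse 37.

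Rrm1 fell in homozygous mice, and its values were ordered by the number of R270H copies. It encodes the large subunit of ribonucleotide reductase, the enzyme that makes deoxynucleotides from ribonucleotides, and lies at chr7:102441695-102469771 on the plus strand. Rrm1 overlaps the annotated gene Gm45399 on the same strand, whose part in the Rrm1 values was not tested. The level of Rrm1 was 11.04 and 10.65 FPKM in wildtype mice, 6.09 and 6.16 FPKM in heterozygous mice and 5.10 and 4.62 FPKM in homozygous mice. The 3 genotypes did not overlap, and the SD within a genotype was 0.277, 0.0458 and 0.339 FPKM in the same order (n = 2 each). Homozygous mice were 2.21-fold lower than wildtype mice (log2 −1.14 ± 0.125, SE; 95% interval −1.45 to −0.83; limma adjusted p = 0.0459). Heterozygous mice were 1.76-fold lower than wildtype mice (log2 −0.81, interval −1.12 to −0.51, limma adjusted p = 0.221), which is 71.2% of the log2 difference in homozygous mice. The step from heterozygous to homozygous was smaller, at log2 −0.33 (interval −0.64 to −0.02, limma adjusted p = 0.707). Of all tested genes, 4.98% had values that were lower with each added allele without overlap and 3.85% had higher ones, and Rrm1 was the only tested gene of the set in either group. Of the genes too low to test, Ccne1, which encodes cyclin E1, had the same order, with 0.898 and 0.898, 0.805 and 0.700, and 0.565 and 0.638 FPKM.

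The Rrm1 difference kept its size but not its call when a mouse was left out. Without homozygous mouse 47, whose prostate markers were low, log2 was −1.21 (limma adjusted p = 0.203), and without mouse 49 it was −1.07 (adjusted p = 0.0733). Without wildtype mouse 39 or 41 it was −1.12 (adjusted p = 0.240) or −1.17 (adjusted p = 0.0912). Leaving out heterozygous mouse 37 or 40 left the value at −1.14 and took the adjusted p to 0.214 or 0.215. Skeletal muscle markers moved the opposite way to Rrm1 over the genotypes, with sums of 1513 to 2230 FPKM in wildtype and 4263 to 5175 FPKM in the other mice, and their part in the Rrm1 difference was not tested.

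The other 3 genes of deoxynucleotide supply had other orders of the genotypes. Rrm2, the small subunit that pairs with RRM1 in S phase, was at 5.93 and 4.89 FPKM in wildtype, 4.22 and 4.60 in heterozygous, and 6.00 and 4.91 in the homozygous ones. Its homozygous and wildtype values overlapped, and the log2 difference was 0.01 (interval −0.43 to 0.45). Rrm2b, the small subunit that p53 is known to induce and which belongs to a reference list of p53 targets, was at 8.50 and 6.28, 6.25 and 8.14, and 6.71 and 9.47 FPKM, with all 3 genotypes overlapping. Tyms, thymidylate synthase, was at 5.10 and 4.39 FPKM in wildtype mice, 3.86 and 3.69 FPKM in heterozygous mice and 4.20 and 3.67 FPKM in homozygous mice. Both mutant groups were below the wildtype mice, by log2 −0.32 (interval −0.72 to 0.09) and −0.26 (interval −0.67 to 0.14), and neither passed the test. Tk1, the S phase thymidine kinase, was at 5.45 and 5.07 FPKM in wildtype, 8.05 and 5.42 FPKM in heterozygous, and 2.23 and 3.97 FPKM in the homozygous ones. Its homozygous values were the lowest of the 6 mice, 2.18-fold below heterozygous mice (log2 −1.12, limma adjusted p = 0.707) and 1.74-fold below wildtype mice (log2 −0.80, limma adjusted p = 0.275). The lowest Tk1 value came from mouse 47, and without it the difference from wildtype mice was log2 −0.40. Tk1 overlaps Afmid on the opposite strand, which was at 2.36 to 4.35 FPKM, and whether strand was used in counting is not given in the sources used here.

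**Figure D2:**
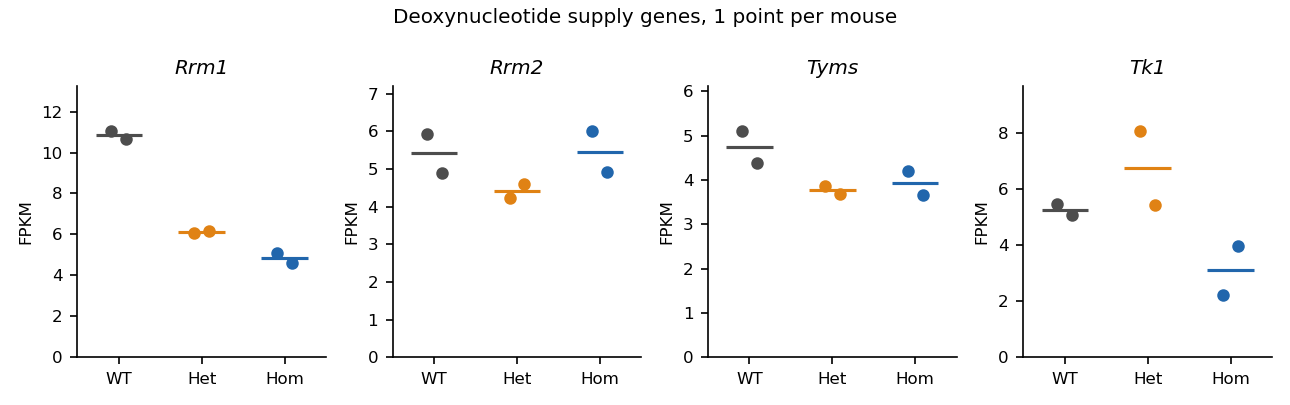
FPKM of Rrm1, Rrm2, Tyms and Tk1, with 1 point per mouse and a bar at the mean of each genotype (WT, wildtype; Het, heterozygous; Hom, homozygous), on axes that start at 0. Rrm1 is at 10.65 or more in wildtype mice and at 5.10 or less in homozygous mice, while Rrm2 overlaps between them.

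No gene that licenses or fires origins passed the test in either mutant genotype. Of the 11, the licensing factors Orc1 and Cdc6 were under 1 FPKM, and 9 were tested, namely Cdt1, the helicase subunits Mcm2, Mcm3, Mcm4, Mcm5, Mcm6 and Mcm7, and the helicase partners Cdc45 and Gins1. Differences from wildtype mice ran from log2 −0.29 to 0.37 in heterozygous and from −0.53 to 0.47 in homozygous mice for these 9, and their lowest adjusted p was 0.290. Orc1, at 0.0840 FPKM, had a homozygous difference of 0.60. Mcm7, the highest of them, was at 8.50 and 7.93 FPKM in wildtype mice, 6.78 and 8.78 FPKM in heterozygous mice and 8.78 and 7.84 FPKM in homozygous mice. The homozygous difference of Mcm7 was log2 0.02, with an interval from −0.39 to 0.43. Mcm6 was at 3.88 and 3.07, 4.36 and 4.63, and 3.67 and 5.14 FPKM, and was the only tested gene of the set with both heterozygous mice above both wildtype mice (19.2% of all tested genes). Mcm2 and Cdc45 were the tested genes with both homozygous mice above both wildtype mice (21.3% of all tested genes). Gins1, a subunit of the GINS complex of the helicase, was lower in both mutant genotypes, at 2.86 and 2.83, 2.48 and 2.16, and 1.71 and 2.22 FPKM, and did not pass the test (homozygous adjusted p = 0.290 by limma, log2 −0.53, and −0.35 without mouse 47).

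The 3 genes of the replication fork were close to the wildtype level in both mutant genotypes. Pcna, the sliding clamp and itself known as a p53 target, was at 17.9 and 18.9 FPKM in wildtype, 18.8 and 17.4 FPKM in heterozygous, and 18.9 and 18.9 FPKM in the homozygous ones. All 6 values lay between 17.4 and 18.9 FPKM, and the log2 differences were −0.03 (interval −0.30 to 0.24) and 0.04 (interval −0.23 to 0.31). Fen1, which trims Okazaki fragments, was at 5.56 to 6.37 FPKM over all mice, and Rfc4, a subunit of the clamp loader, at 3.04 to 4.69 FPKM. Of the G1/S regulators, E2f1 was at 1.97 and 0.839 FPKM in wildtype, 1.34 and 1.41 in heterozygous, and 1.21 and 1.93 in the homozygous ones. The wildtype mice of E2f1 differed more from each other than the genotypes did. Cyclin E2, Ccne2, was at 0.170 to 0.492 FPKM.

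Mitosis genes were lower in heterozygous than in wildtype mice as a group, without any single gene passing the adjusted test. Over all 18 mitosis genes the median log2 difference was −0.36, and 16 of the 18 had a lower mean. All 10 that were tested were lower, where 52.8% of all tested genes were. Both heterozygous mice were below both wildtype mice for 6 of the 10 tested, namely Top2a, Cdk1, Plk1, Aurkb, Cdc20 and Birc5, against 19.9% of all tested genes, and for 4 of the 17 tested S phase genes. For S phase the median log2 difference was −0.01, and over all 13818 tested genes it was −0.01 as well. Genes expressed in the same dividing cells can move together, so the count of genes does not give a number of independent observations, and no test was made over it. The medians by mouse, relative to the wildtype mean, were −0.48 and −0.26 in heterozygous mice 37 and 40, against −0.004 and 0.004 in wildtype mice. Because the wildtype mean was subtracted from each gene, the wildtype medians mirror each other around 0. They do not give the spread of single genes between the wildtype mice, where Foxm1 was at 1.46 and 0.828 FPKM. The heterozygous mice differed from each other, and mouse 37 was the lower one. With a pseudocount of 1 the mitosis median was −0.20, and by quantile normalization it was −0.47.

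In homozygous mice the median of the mitosis genes was close to that of wildtype mice, while single genes lay on both sides. The median log2 difference from wildtype mice was −0.03 for mitosis, with −0.09 and 0.04 in mice 47 and 49, and 0.05 for S phase. It was −0.04 over all tested genes. Both homozygous mice were below both wildtype mice for 4 of the 10 tested mitosis genes (40%) and 4 of the 17 tested S phase genes (23.5%), against 28.7% of all tested genes. Means were lower for 7 of the 10 (70%) and 4 of the 17 (23.5%), against 55% of all tested genes. None of the 10 mitosis genes passed the test. Against heterozygous mice the median of the mitosis genes was 0.28 higher on the log2 scale, and 15 of the 18 had a higher mean. For S phase the median was 0.09, and 15 of the 21 genes had a higher mean. Over all tested genes the median was −0.03, and 6313 of 13818 had a higher mean. The 3 comparisons share mice, so their values are given side by side and not as separate evidence. Prostate epithelium markers summed to 12627 and 12980 FPKM in wildtype, 9700 and 9290 FPKM in heterozygous and 1184 and 8383 FPKM in homozygous animals, and macrophage markers, 8 in all, to 171 and 168, 261 and 222, and 105 and 262 FPKM. The heterozygous mice did not overlap the wildtype mice in either sum, and the part of these cells in the mitosis values was not tested.

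**Figure D3:**
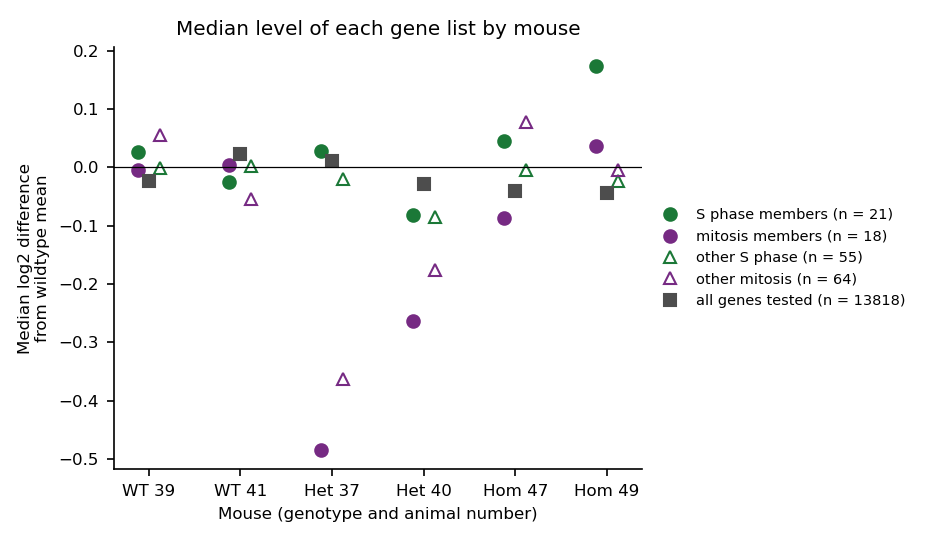
Median log2 difference from the wildtype mean in each mouse for the 21 S phase genes, the 18 mitosis genes, the 55 other S phase and 64 other mitosis genes, and all 13818 tested genes. Both mitosis lists lie lowest in heterozygous mice 37 and 40, at −0.48 and −0.26 for the 18 genes, while the S phase lists and all genes stay between −0.09 and 0.17.

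Top2a, which encodes the topoisomerase that untangles sister chromatids, had the smallest p-value of the mitosis genes. It was at 6.17 and 6.42 FPKM in wildtype, 4.92 and 4.41 FPKM in heterozygous, and 5.79 and 5.51 FPKM in the homozygous ones. Heterozygous mice were 1.34-fold below wildtype mice (log2 −0.43, interval −0.76 to −0.09, limma adjusted p = 0.584), and the homozygous mice lay between the other groups. Mki67, the marker Ki-67, was under 1 FPKM on average, with 0.713 and 0.633 FPKM in wildtype, 0.462 and 0.571 in heterozygous, and 0.811 and 1.09 in the homozygous ones. Its 3 genotypes did not overlap, and the order was heterozygous, wildtype, homozygous. No share of all genes was counted for this order. In the fit without the limit of 1 FPKM, the heterozygous difference from wildtype mice was log2 −0.33 (interval −1.13 to 0.47). The homozygous difference was 0.43 (interval −0.37 to 1.23), so both intervals include 0. Cenpf, a kinetochore protein gene, was at 0.718 and 1.05, 0.363 and 0.633, and 0.246 and 0.625 FPKM.

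Cdk1, the kinase that drives entry into mitosis, was the second highest mitosis gene, at 3.07 and 3.10 FPKM in wildtype, 2.52 and 2.75 FPKM in heterozygous, and 2.78 and 3.00 FPKM in the homozygous ones. The heterozygous difference was log2 −0.22 (interval −0.65 to 0.20). Foxm1, the transcription factor of G2 genes, was at 1.46 and 0.828, 0.733 and 0.898, and 1.53 and 1.44 FPKM, with wildtype mice that differed by more than the means of heterozygous and wildtype mice. Ccna2, cyclin A2, was at 1.61 and 0.798, 1.05 and 1.08, and 1.61 and 1.36 FPKM, with wildtype values that overlapped both other genotypes, and it overlaps Exosc9 on the opposite strand. Among the mitotic kinases, Plk1 was at 1.52 and 1.24 FPKM in wildtype, 0.659 and 0.803 FPKM in heterozygous, and 1.18 and 1.00 FPKM in the homozygous ones. Plk1 was 1.78-fold lower in heterozygous than in wildtype mice (log2 −0.83, interval −1.68 to 0.02, limma adjusted p = 0.738). The Aurora kinase genes Aurka and Aurkb were at 1.34 to 1.85 and 1.04 to 1.96 FPKM. Aurkb lies 529 kb from Trp53 on chromosome 11.

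Cdc20, an activator of the anaphase-promoting complex, was at 2.30 and 2.49 FPKM in wildtype, 1.27 and 1.43 FPKM in heterozygous, and 0.990 and 1.95 FPKM in the homozygous ones. Both mutant genotypes were below the wildtype mice, by log2 −0.78 (interval −1.67 to 0.10) and −0.74 (interval −1.62 to 0.15), neither past the test. The homozygous value of Cdc20 was −0.28 without mouse 47 and −1.19 without mouse 49. Cdc20 overlaps Elovl1 on the opposite strand. Birc5, which encodes Survivin of the chromosomal passenger complex, was at 2.01 and 2.09, 1.27 and 1.97, and 2.45 and 1.53 FPKM, with homozygous values on both sides of the wildtype ones. Checkpoint kinase genes Bub1 and Bub1b were at 0.172 to 0.460 and 1.05 to 1.49 FPKM. The spindle motors Kif11 and Kif20a and the spindle assembly factor Tpx2 were at 0.315 to 0.940 FPKM over the 3 genes, with heterozygous log2 differences from −0.51 to −0.28 and homozygous ones from −0.08 to 0.02, none of them tested.

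**Figure D4:**
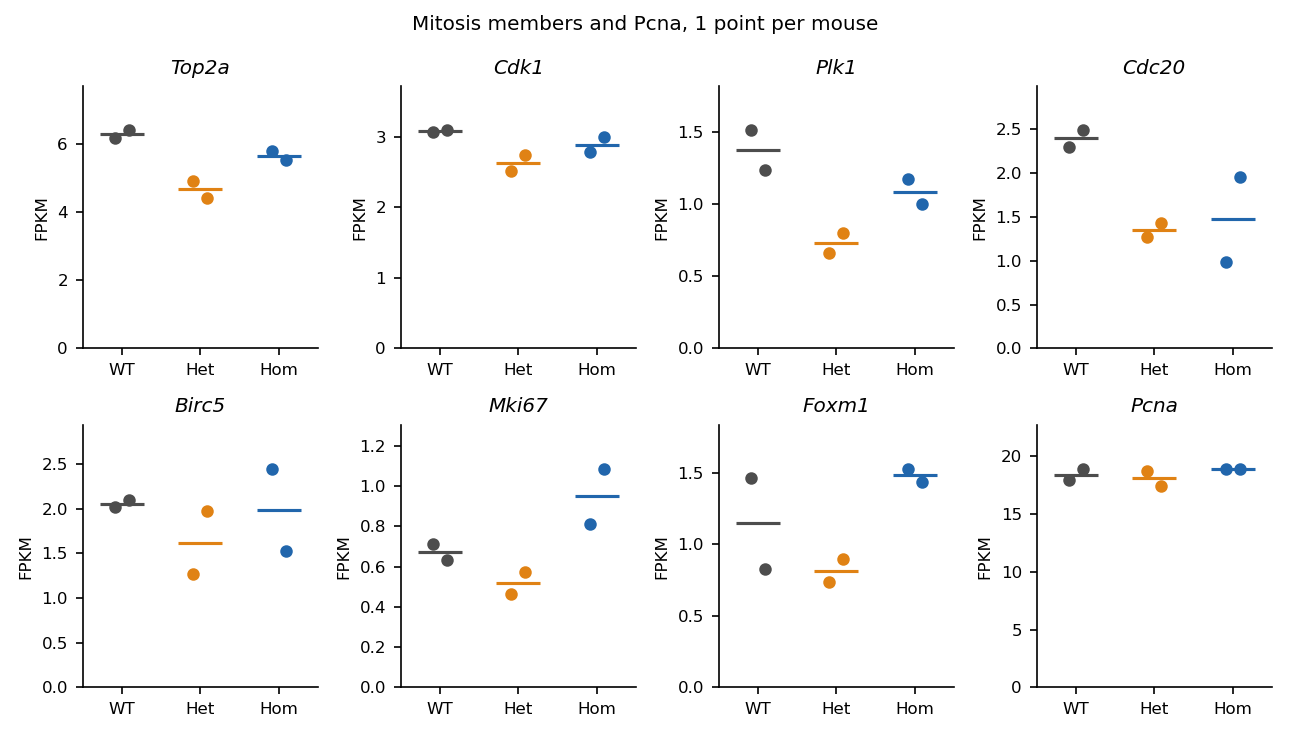
FPKM of 7 mitosis genes and of Pcna, with 1 point per mouse and a bar at the mean of each genotype (WT, wildtype; Het, heterozygous; Hom, homozygous), on axes that start at 0. Heterozygous mice are lowest for Top2a, Cdk1, Plk1 and Mki67, and Pcna is level at 17.4 to 18.9.

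The intervals show how much 2 mice per genotype could resolve. The 95% interval lay within 2-fold in either direction for 15 of the 27 tested genes in heterozygous against wildtype mice, 11 for S phase and 4 for mitosis. In homozygous against wildtype mice it did so for 16, of which 10 act in S phase and 6 in mitosis, and between the mutant genotypes for 19. For these genes a change beyond 2-fold lies outside the interval, and for the rest it does not.

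**Figure D5:**
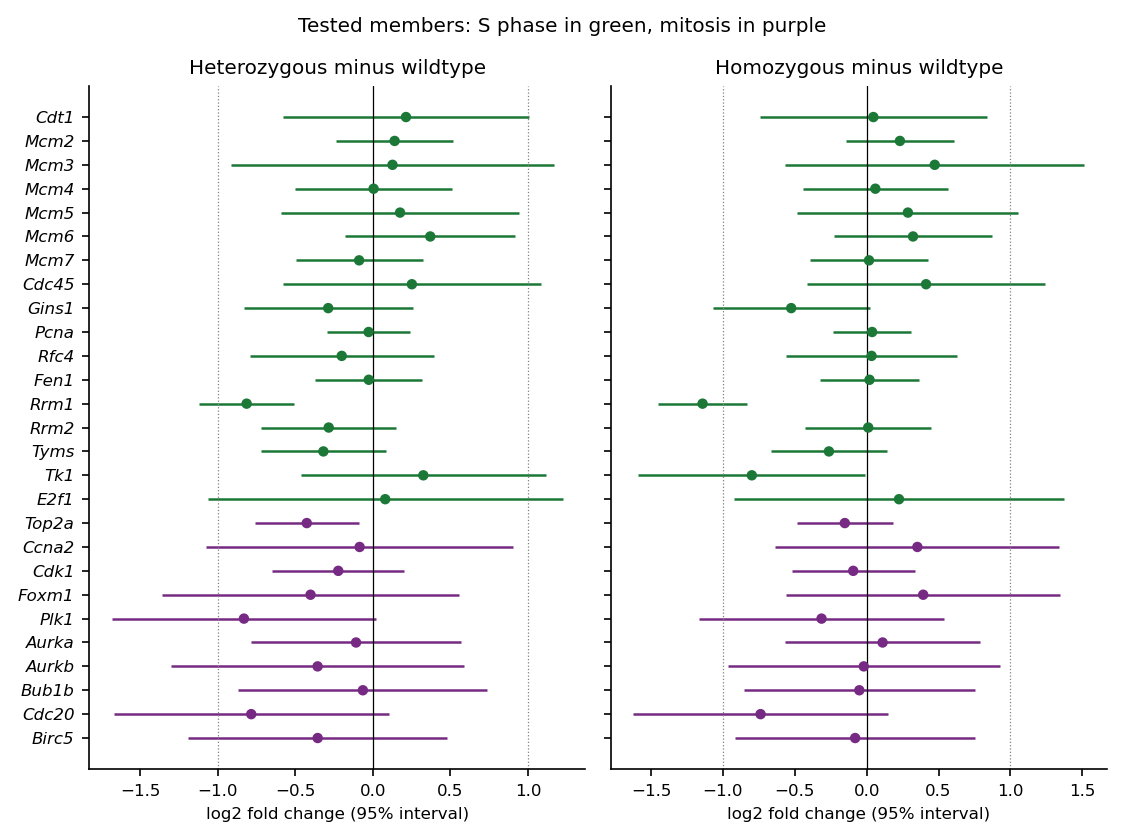
Log2 differences from wildtype mice with 95% intervals from limma for the 27 tested genes, S phase in green and mitosis in purple, with dotted lines at 2-fold. Rrm1 lies at −0.81 in heterozygous and −1.14 in homozygous mice, and all 10 mitosis points are below 0 in heterozygous mice.

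Other genes of the cell cycle were compared with the same fit. They were 55 further S phase genes, 64 further mitosis genes, 25 brakes of the cycle and 6 genes of G1 entry, 150 in all, of which 104 were tested. In homozygous against wildtype mice 3 of the 104 passed as lower, Cdkn1a, Gtse1 and Ccng1, and 0 as higher. Of all tested genes 0.261% were called lower and 0.123% higher. The further mitosis genes had a heterozygous median of log2 −0.30 against wildtype mice, with 51 of the 64 lower, no test being made over the list. Of all tested genes 52.8% had a lower mean in heterozygous than in wildtype mice. The homozygous median of the further mitosis genes was 0.05. The further S phase genes had medians of −0.06 and 0.02. The brakes had medians of −0.10 and −0.14, and 19 of 25 had a lower mean in either mutant genotype. The shares of all tested genes with a lower mean were 52.8% in heterozygous and 55% in homozygous mice. Cdkn1a and Ccng1 are among these brakes and also belong to the reference list of p53 targets.

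Cdkn1a, the p21 gene, was at 109 and 101 FPKM in wildtype, 40.5 and 41.4 FPKM in heterozygous, and 6.70 and 6.17 FPKM in the homozygous ones. Homozygous mice had 16.1-fold less of it than wildtype mice (log2 −4.01, limma adjusted p = 0.00075). Its 3 genotypes did not overlap, and the adjusted p was at most 0.0348 when any 1 mouse was left out. Gtse1, a gene induced by p53 whose protein is made in G2 and binds microtubules, was at 6.96 and 5.76, 2.53 and 2.32, and 0.566 and 0.738 FPKM, and was 8.60-fold lower in homozygous mice (log2 −3.11, limma adjusted p = 0.0175). Its adjusted p was 0.151 and 0.142 without heterozygous mice 37 and 40, 0.0728 without homozygous mouse 47 and 0.137 without wildtype mouse 39. Ccng1, cyclin G1 and a p53 target, was at 217 and 179, 80.6 and 99.7, and 50.1 and 54.2 FPKM, and was 3.77-fold lower (log2 −1.91, limma adjusted p = 0.0291). For Ccng1 the adjusted p was 0.151 and 0.141 without mice 37 and 40, 0.181 and 0.0542 without mice 47 and 49, and 0.153 without mouse 39.

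Genes of each list with the next lowest p-values did not pass the adjusted test. In the mitosis list they were Ckap2, a microtubule-associated protein gene, at 2.53 and 2.01, 0.750 and 1.01, and 0.612 and 0.633 FPKM, and Cks2, a partner of cyclin-dependent kinases, at 8.23 and 8.92, 6.34 and 6.22, and 5.63 and 5.78 FPKM. Both were ordered by the number of R270H alleles without overlap. Mitosis genes with the opposite direction, chosen after their values were seen, were the condensin gene Smc4 at 5.74 and 5.55, 5.31 and 5.92, and 8.54 and 8.55 FPKM (log2 0.59, limma adjusted p = 0.142), and Cdc25b, whose phosphatase activates CDK1. Cdc25b was at 3.31 and 5.34, 5.97 and 7.30, and 9.69 and 8.23 FPKM (log2 1.07, limma adjusted p = 0.157), and its values were higher with each added allele without overlap. In the S phase list they were Dut (log2 −0.46), which removes dUTP, the activator E2f3 (log2 −0.75) and the GINS subunit Gins2 (log2 −0.73) in homozygous against wildtype mice. Rprm, a mediator of p53-dependent G2 arrest, was at 6.71 and 7.36, 3.99 and 3.33, and 3.49 and 3.26 FPKM, with the step already at 1 mutant allele. Ccnd1, cyclin D1 of G1 entry, had the opposite direction, at 33.3 and 45.5, 37.8 and 43.4, and 92.1 and 62.9 FPKM, or 1.95-fold higher in homozygous than in wildtype mice (limma adjusted p = 0.168).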

How the data were processed

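Total RNA from snap-frozen prostates was made into stranded mRNA libraries and sequenced. Per the labels, reads were aligned to mm10 (GRCm38) with HISAT and quantified with Cufflinks and Cuffnorm. The authors deposited FPKM values per gene, with no counts, so depth could only be estimated relative to another mouse. Versions, annotation and use of strand in counting are not given in the sources used here.

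The 47719 gene identifiers were matched to GENCODE M21 (47219 found) for positions. Genotypes came from the labels, and replicates are different mice, numbered by animal. The fit used limma 3.58.1 in R 4.3.3 (lmFit on the 3 genotype means, eBayes with an intensity trend, 2.77 prior and 3 residual degrees of freedom) on log2(FPKM + 0.1) for 13818 genes with a mean of at least 1 FPKM, with Benjamini-Hochberg adjustment and a threshold of 0.05. Fold changes are on this scale, which understates those of low genes. Log2 differences of genes under 1 FPKM come from the same fit without the filter. The fit was tested on simulated data for homozygous against wildtype mice (13818 genes, 200 changed). It called 119 genes, 110 of them changed, with 77% of changes of 2 and 33% of changes of 1 on the log2 scale called. Simulated spreads were taken at random from those of all genes, without regard to level. In the real fit the SE of this comparison was 0.345 for Plk1 and 0.109 for Pcna, so the rates need not hold for low genes.

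The members and the gene lists were chosen with earlier results of these data known. Values in every mouse were given for members with an unadjusted p under 0.05, the 3 highest of each phase, Mki67, Top2a, Pcna, E2f1 and those near 1 FPKM, and for other lists those past the adjusted test and up to 3 with the lowest p in homozygous against wildtype mice. Other members given by mouse (among them Rrm2, Tyms, Gins1, Mcm6, Plk1, Cdc20, Foxm1, Cenpf, Ccna2 and Ccne1), Rrm2b, Smc4 and Cdc25b were chosen after their values were seen. Alternatives were other pseudocounts, filters and scalings, a prior without trend, ordinary F-tests gene by gene, and leaving out each mouse. Promoters came from the RefSeq table for GRCm38.p6. Other calculations used Python 3.11.15, numpy 2.4.6, pandas 2.3.3 and matplotlib 3.10.9.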

Additional observations from a re-analysis of the deposited data

How the results depend on the processing

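Rrm1 was lower in homozygous than in wildtype mice under all 13 alternatives (log2 −1.21 to −1.01), with an adjusted p from 0.0403 to 0.240 that was under 0.05 in 4 of them. The count of members called in that comparison went from 1 to 0 with no filter, with no intensity trend, by quantile normalization and without any 1 mouse (range 0 to 0). It stayed at 0 in the F-test, between heterozygous and wildtype mice and between homozygous and heterozygous mice under all alternatives run. Without adjustment, the counts of 2 in the F-test and in heterozygous against wildtype, homozygous against wildtype and homozygous against heterozygous mice were 1 to 3, 1 to 4, 1 to 4 and 0 to 2 without 1 mouse, and 5, 4, 4 and 3 by quantile normalization. The 3 other cell cycle genes called became 1 with no filter, and 1 to 3 without 1 mouse.

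The mitosis median of heterozygous minus wildtype mice (−0.36) was −0.20 with a pseudocount of 1, −0.47 by quantile normalization and −0.48 to −0.26 without 1 mouse. That of homozygous minus wildtype mice (−0.03) was −0.15 with a filter at 5 FPKM, which leaves Top2a alone, −0.18 by quantile normalization and −0.09 to 0.04 without 1 mouse. The S phase median of homozygous minus wildtype mice (0.05) ranged without 1 mouse from 0.021 to 0.17. Over the members with a mean of 1 FPKM or more, an alternative chosen after seeing the data, the mitosis medians were −0.36 and −0.07. The cause of these shifts was not tested. The 2 members ordered by allele number without overlap (Rrm1 and Ccne1) became 1 with a filter at 5 FPKM and 1 by quantile normalization, and 3 to 6 without 1 mouse, when fewer values have to be ordered.

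No paired analysis was possible because the genotypes share no animal number. Fragment counts are unknown, and 2 mice per genotype limit the precision.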
